A study of Mus musculus with 32 samples.

Results

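The comparison of *Cyp2c70* KO with WT female mice under SC-435, 4 livers a side, asks which expression differences between the genotypes were left when both received the drug. It uses 8 of the 32 liver RNA-Seq libraries of the series and 15869 of the 54532 genes in the deposited table, namely those with enough counts to be tested in these 8 libraries. The series compared WT and *Cyp2c70* KO mice of both sexes that ate either chow or chow with SC-435. All 8 mice were 12-week-old C57BL/6 females on chow with 0.006% SC-435, a dose of about 11 mg/kg per day. By the labels SC-435 began 3 weeks after weaning, and the mice differed in genotype only, being either WT or *Cyp2c70* -/-. No litter, cage or time of collection is labelled. The KO line goes back to 1 founder mouse, in which CRISPR-Cas9 removed a stretch of DNA that holds exon 2 of *Cyp2c70*. The study's own scheme can be read as placing the switch of diet at weaning, so the length of treatment is uncertain. The mice had free access to food until the livers were perfused and frozen. The untreated counterparts, 4 chow-fed mice of each genotype and sex, and the SC-435-fed males are used below only to show where this comparison differs from theirs.

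*Cyp2c70* is the mouse liver enzyme that turns chenodeoxycholic acid into muricholic acids, the hydrophilic primary bile acids that mice have and humans lack. Mice without it carry a bile acid pool that is more hydrophobic and more like the human pool, and such bile acids can injure bile ducts and hepatocytes. SC-435 blocks the ileal bile acid transporter, so that bile acids are lost in the stool, less return to the liver, and the liver makes new ones from cholesterol. Bile duct epithelial cells, or cholangiocytes, multiply and stellate cells deposit collagen when the biliary tree is injured.

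The 8 libraries held between 38547236 and 44268442 counts, of which at most 5.49% lay on mitochondrial genes. Levels are given in CPM (counts divided by TMM-adjusted library sizes), values after ± are SDs over 4 mice, and a gene is called if it passed edgeR's quasi-likelihood test (Benjamini-Hochberg adjusted p under 0.05) and its log2 fold change was more than 1 in size. The 11 markers of hepatocytes, the tissue's main cell type, were all present and summed to 85580 to 105000 CPM in WT and 91260 to 104500 CPM in KO mice, a sum that albumin dominates. WT mice 1 and 2 stood apart from WT mice 3 and 4 on a set of genes, some of them linked to fasting or the clock. This set was chosen after its values were seen and is described with the results it touches.

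*Cyp2c70* (ENSMUSG00000060613; GRCm38 chr19:40153353-40187333, minus strand) checks the genotype labels. The 4 WT mice had 438, 416, 468 and 570.5 CPM and the 4 KO mice 152, 148, 135 and 132 CPM, so that each KO mouse lay below each WT mouse. The means were 473 ± 68.3 CPM in WT and 142 ± 9.98 CPM in KO mice (SD, n = 4), a log2 fold change of -1.74 with a standard error of 0.10 (edgeR adjusted p = 3.48e-05, and two-sided exact permutation p = 0.0286, the smallest that 4 against 4 allows). The exon named for the deletion is exon 2 of 9 in the protein-coding transcript of GENCODE (GRCm38 chr19:40183866-40184028), printed here 5′ to 3′ on the minus strand because the deletion that separates the groups takes it away:

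*Cyp2c70* exon 2: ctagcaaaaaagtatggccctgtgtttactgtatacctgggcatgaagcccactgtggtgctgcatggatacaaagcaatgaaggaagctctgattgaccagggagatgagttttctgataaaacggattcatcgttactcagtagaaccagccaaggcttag

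Among the 15869 genes, 316 were called higher in KO mice (1.99% of those tested) and 90 lower (0.567%). At an adjusted p under 0.05 and any fold change the numbers were 988 higher (6.23%) and 744 lower (4.69%). These shares of all genes are the background for each list count below. Of the 316 called higher, 295 were protein-coding, and in 301 each KO mouse lay above each WT mouse. Of the 90 called lower, 65 were protein-coding and the groups did not overlap in 80. The calls were made on the same libraries, so this separation follows largely from the calling and is not separate support. The share of all tested genes without overlap is not given here. The median log2 fold change was 1.42 among the former and -1.42 among the latter, and 48 and 24 genes passed 2 in size. Leaving out each library in turn left between 226 and 341 higher and between 45 and 109 lower calls, and the lower count fell by more than 1.5 times without KO mouse 1 (55) or KO mouse 2 (45).

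**Figure D1:**
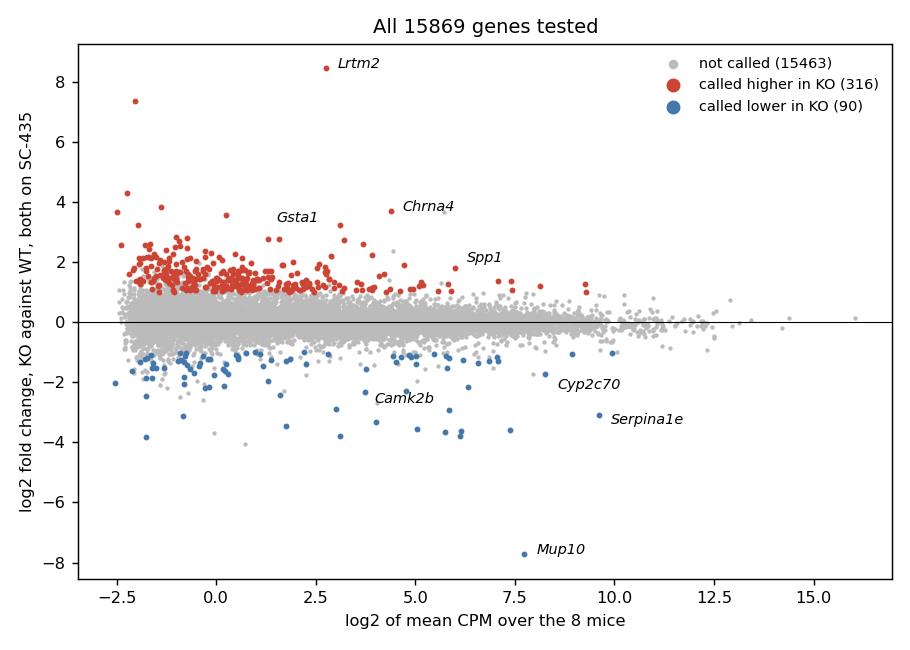
Log2 fold change (KO against WT, both on SC-435) against the log2 of the mean CPM over the 8 mice for each gene tested. The 316 genes called higher are drawn in red and the 90 called lower in blue, the rest in grey, and *Lrtm2* at 8.45 and *Mup10* at -7.73 mark the extremes.

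The most distant gene was *Lrtm2* (ENSMUSG00000055003; chr6:119315133-119330766, minus strand), which encodes a leucine-rich repeat membrane protein. The WT libraries held 0 to 4 counts of it and the KO libraries 464 to 666. Summed over 4 mice this was 6 against 2259 counts, a ratio of 384 after scaling to library size, with a 95% exact interval of 176 to 1050 that covers counting error only. The fitted log2 fold change was 8.45 (SE 0.33, edgeR adjusted p = 1.45e-06), and it was 8.16 in chow-fed females and 6.95 in SC-435-fed males. *Lrtm2* lies within *Cacna2d4*, a calcium channel subunit gene on the opposite strand, whose WT libraries held at most 3 counts and whose KO libraries held 17 to 44. Against 3 counts per library, *Cacna2d4* was at least 10.2-fold higher in KO mice. Whether the libraries kept strand is not given in the sources used here, so reads of this overlapping pair cannot be told apart.

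*Chrna4*, a neuronal nicotinic acetylcholine receptor subunit, was at 1.34, 2.80, 4.001 and 3.72 CPM in WT mice and 30.9, 41.3, 50.3 and 32.5 CPM in KO mice. The groups were far apart, with a log2 fold change of 3.70 (SE 0.28, edgeR adjusted p = 9.9e-05). *Nfe2*, a blood-lineage transcription factor of the NRF family, stood at 2.65, 2.58, 5.65 and 10.1 CPM in WT and 38.1, 23.6, 21.7 and 16.1 CPM in KO mice, a log2 fold change of 2.24 (SE 0.42, edgeR adjusted p = 0.00991). The WT values of both genes spread widely, and the KO values lay above them in every mouse. *Hao2*, a peroxisomal hydroxy acid oxidase that female mouse liver normally expresses more than male liver, rose from 2.42 ± 1.30 to 16.1 ± 5.95 CPM (log2 fold change 2.73, SE 0.40, edgeR adjusted p = 0.00368). *Osbpl3*, a lipid transfer protein, rose from 2.62 ± 1.38 to 12.1 ± 3.28 CPM, and *Kif12*, a kinesin found in bile duct and kidney epithelium, from 0.479 ± 0.105 to 2.29 ± 0.504 CPM. Their log2 fold changes were 2.20 (SE 0.34, edgeR adjusted p = 0.00425) and 2.25 (SE 0.24, edgeR adjusted p = 0.00085).

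**Figure D2:**
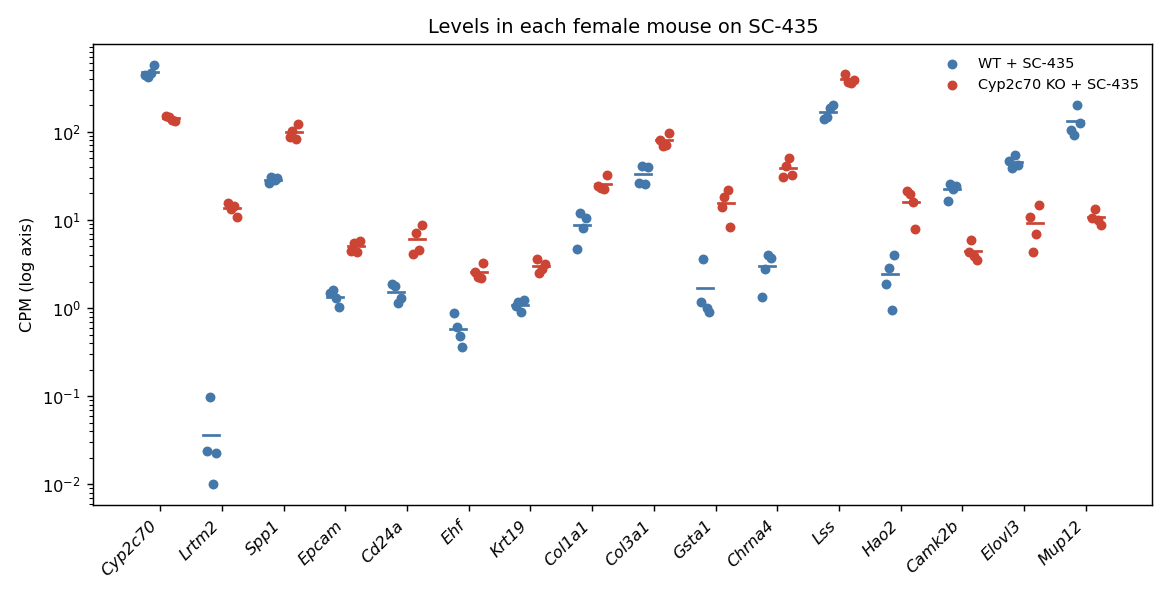
CPM (log axis) of 16 genes in each of the 4 WT (blue) and 4 KO (red) females on SC-435, with a bar at the mean of each group. The groups do not overlap for any gene shown, and the WT mouse with no *Lrtm2* count is drawn at the foot of the axis.

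Cholangiocyte markers rose in KO mice. Of the 18 listed, 14 were tested, and 11 of these were called higher and none lower, beside 1.99% and 0.567% of all genes. Their median log2 fold change was 1.57, against -0.004 over all genes, and all 14 tested were above 0. The summed level of the list lay between 72.3 and 80.3 CPM in WT mice and between 156 and 222 CPM in KO mice. In a bulk liver library, more cells of a type and more RNA per cell cannot be told apart.

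*Spp1*, the secreted matrix protein osteopontin that bile duct cells and activated macrophages make, was at 26.01, 30.2, 28.1 and 29.7 CPM in WT mice and 86.5, 102, 83.1 and 122 CPM in KO mice. Its log2 fold change was 1.79 (SE 0.12, edgeR adjusted p = 5.69e-05), and the WT mice were close together while the KO mice were all well above them. *Epcam*, an epithelial adhesion molecule that marks bile ducts and not mature hepatocytes, was at 1.48, 1.60, 1.28 and 1.04 CPM in WT and 4.47, 5.44, 4.34 and 5.80 CPM in KO mice (log2 fold change 1.89, SE 0.17, edgeR adjusted p = 0.000295). *Prom1*, the progenitor and ductal surface protein CD133, was at 1.41, 1.23, 0.994 and 1.67 CPM in WT and 4.59, 3.96, 5.35 and 5.82 CPM in KO mice (log2 fold change 1.89, SE 0.19, edgeR adjusted p = 0.000568). In both genes each KO mouse lay well above each WT mouse. *Krt19*, the ductal keratin, rose from 1.09 ± 0.151 to 2.99 ± 0.452 CPM (log2 fold change 1.45, SE 0.18), *Cd24a*, a glycoprotein of immature epithelium, from 1.52 ± 0.357 to 6.14 ± 2.16 CPM (log2 fold change 2.01, SE 0.27), and *Ehf*, an epithelial ETS transcription factor, from 0.586 ± 0.224 to 2.57 ± 0.493 CPM (log2 fold change 2.13, SE 0.27). The 3 adjusted p-values from edgeR were 0.00163, 0.00231 and 0.00186. *Krt7*, *Krt23*, *Cldn7*, *Tspan8* and *Muc1* were called as well, with log2 fold changes of 1.02 to 1.72. *Sox9*, the transcription factor of the ductal plate, passed the adjusted p at 0.96, while *Slc10a2*, the transporter that SC-435 blocks and that cholangiocytes also carry, at 0.46 did not. Over the 8 alternatives with all libraries the number called was 10 to 11, and it was 10 to 12 with 1 library left out.

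Extracellular matrix genes rose with them. Of 32 tested, 7 were called higher and 0 lower, and 23 rose at any fold change, beside 1.99% and 6.23% of all genes. Their median log2 fold change was 0.62 and 31 of the 32 were above 0. *Col1a1*, the main chain of type I collagen, was at 4.66, 11.8, 8.15 and 10.4 CPM in WT mice and 24.3, 22.8, 22.6 and 32.1 CPM in KO mice. The highest WT mouse was well under the lowest KO mouse, and the log2 fold change was 1.54 (SE 0.24, edgeR adjusted p = 0.00442). *Col3a1*, the type III chain, was at 25.9, 41.2, 25.6 and 39.5 CPM in WT and 81.3, 69.7, 71.04 and 97.7 CPM in KO mice (log2 fold change 1.27, SE 0.17, edgeR adjusted p = 0.00264). *Col6a3*, a microfibril collagen, rose from 9.38 ± 0.972 to 20.7 ± 2.96 CPM and *Col1a2*, the partner chain of *Col1a1*, from 16 ± 4.35 to 32.8 ± 3.41 CPM, with log2 fold changes of 1.14 (SE 0.11, edgeR adjusted p = 0.00055) and 1.04 (SE 0.17, edgeR adjusted p = 0.00535). The other called members were *Loxl1*, a collagen crosslinking enzyme, at 1.26, and the matrix metalloproteinases *Mmp12* at 1.31 and *Mmp13* at 1.53. In the fit that shared its estimate of spread with the chow-fed females, 5 were called and 10 rose at any fold change. Without KO mouse 4, 15 rose at any fold change. *Col1a2* was under the fold limit without WT mouse 1 (0.96), WT mouse 3 (0.91) or KO mouse 4 (0.96), and *Mmp12* was not called in that shared fit (edgeR adjusted p = 0.143).

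Stellate cells are the usual source of liver collagen, and 13 of their markers were tested. *Pdgfrb*, the growth factor receptor that rises on activation, was the only one called, at 9.07, 8.54, 9.41 and 10.4 CPM in WT and 22.1, 19.5, 18.4 and 23.02 CPM in KO mice, a log2 fold change of 1.15 (SE 0.09, edgeR adjusted p = 0.000165). At any fold change 4 markers rose and 1, *Rgs5* at -0.59, fell. The contractile genes that mark myofibroblasts did not pass the test, with *Acta2* at 0.30 and *Tagln* at 0.53, and neither did the quiescence gene *Ecm1*, with -0.02 (SE 0.12, edgeR adjusted p = 0.925), a value whose sign turned with the scaling. The summed level was 382 to 564 CPM in WT and 532 to 589 CPM in KO mice, so the groups overlapped.

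The list of injury-induced epithelial and lipid macrophage genes had 21 tested members. Of these, 6 were called higher and 0 lower, beside 1.99% and 0.567% of all genes. The 6 were *Lrtm2*, *Spp1*, *Ly6d*, *Mmp12*, *S100a11* and *Cd63*, so 1 of them also counts among the cholangiocyte markers and 1 among the matrix genes. *Ly6d*, a small surface protein of squamous and progenitor epithelium, was at 0.310, 0.344, 0.873 and 0.901 CPM in WT and 1.11, 2.78, 3.01 and 1.43 CPM in KO mice (log2 fold change 1.76, SE 0.43, edgeR adjusted p = 0.0289). *S100a11*, a calcium-binding protein, rose from 2.97 ± 1.01 to 7.08 ± 1.78 CPM and *Cd63*, a lysosomal tetraspanin, from 2.73 ± 0.650 to 5.70 ± 0.899 CPM. Of its lipid macrophage members, *Trem2* at 0.53 and *Lgals3* at -0.25 did not pass the test, and *Gpnmb* held 5 to 8 counts in WT and 8 to 18 in KO libraries, too few to be tested. In the fit over all 4 female groups 3 of the 21 were called, without *Ly6d*, *Mmp12* and *Cd63*. *Ly6d* also lost its call without WT mouse 1 or 2 or KO mouse 2 or 3 (log2 fold changes 1.53 to 1.59), and *Cd63* without WT mouse 3 or 4 or KO mouse 1 or 4, where it was at or just under the fold limit.

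No marker of an immune cell type was called higher, beside 1.99% of all genes. Lists this short can hold no call at that share. Of 19 macrophage and Kupffer cell markers tested, 0 were called higher, and 1, *Cd163*, was called lower. Their median log2 fold change was -0.06 and their summed level was 704 to 830 CPM in WT and 587 to 901 CPM in KO mice. *Cd163*, the haemoglobin scavenger receptor of resident macrophages, was at 39.6, 30.3, 28.7 and 21.2 CPM in WT mice and 11.8, 9.60, 13.2 and 19.7 CPM in KO mice, with KO mouse 4 just under the lowest WT mouse (log2 fold change -1.14, SE 0.23, edgeR adjusted p = 0.0128). *Cd163* was not called in the fit over all 4 female groups (edgeR adjusted p = 0.0681) or without WT mouse 1 (log2 fold change -0.98). *Clec4f*, the Kupffer cell lectin, did not pass the test, with 106 ± 19.5 CPM in KO and 133 ± 15.03 CPM in WT mice. Of 27 interferon response genes, 0 were called and 1, *Oasl1* at 0.42, rose at a smaller fold change, and the median was -0.17. Neither the 7 monocyte and neutrophil, the 12 T and NK cell, the 12 B and plasma cell nor the 12 endothelial markers tested held a called gene. Their median log2 fold changes were -0.01, 0.37, 0.03 and -0.13, and the T and NK cell markers summed to no more than 16.7 CPM in any library. Of the T and NK cell markers 11 were above 0, and 0 passed the adjusted p. At any fold change 1 monocyte and neutrophil marker rose and 0 fell. Among 19 chemokine and cytokine genes, *Cx3cl1*, a membrane-bound chemokine of epithelium and endothelium, was called, at 2.10 ± 0.319 CPM in KO against 0.781 ± 0.144 CPM in WT mice (log2 fold change 1.43, SE 0.20, edgeR adjusted p = 0.00307). At any fold change *Il1b* (0.99), *Ccl9* (0.46) and *Cxcl16* (0.40) rose too and *Ccl6* (-0.70) fell.

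Most genes of cholesterol synthesis rose by a small amount in KO mice. All 25 listed genes were tested. Of these, 2 were called higher, 19 rose at any fold change and 0 fell, beside 1.99%, 6.23% and 4.69% of all genes. The 25 estimates were all at or above 0 with a median log2 fold change of 0.57. *Lss*, lanosterol synthase, was at 138, 147, 188 and 201 CPM in WT and 449.8, 369.6, 353 and 390.0 CPM in KO mice, each KO mouse above each WT mouse (log2 fold change 1.22, SE 0.13, edgeR adjusted p = 0.000719). *Hmgcs1*, an early synthase of the pathway, rose from 1450.0 ± 171 to 2546 ± 275 CPM (log2 fold change 0.81, SE 0.10, edgeR adjusted p = 0.00181), and *Mvd* and *Insig1* rose by 0.90 and 0.88 on the log2 scale. *Srebf2*, the transcription factor of the pathway, was at 0.18 and did not pass. In the fit over all 4 female groups 1 of the 25 passed the adjusted p at any fold change, with an unmoved median of 0.58.

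Genes of fatty acid synthesis rose in part. Of 20 tested, 2 were called higher and 9 rose at any fold change, beside 1.99% and 6.23% of all genes. In the fit over all 4 female groups 3 rose. Only 1 was called without WT mouse 1 or KO mouse 2, as *Elovl6* was then under the fold limit (0.97 and 0.95). *Acly*, which makes cytosolic acetyl-CoA for both pathways, was at 333, 428, 334 and 350.4 CPM in WT and 748, 849, 1119 and 778 CPM in KO mice (log2 fold change 1.27, SE 0.13, edgeR adjusted p = 0.000702). *Elovl6*, which lengthens palmitate, rose from 112 ± 14.03 to 233 ± 40.3 CPM (log2 fold change 1.05, SE 0.13, edgeR adjusted p = 0.00163). The groups did not overlap for either gene. The fatty acid synthase gene *Fasn* at 0.91, *Gpam* at 0.95, *Acss2* at 0.89 and *Srebf1*, the lipogenic transcription factor, at 0.50 passed the adjusted p below the fold limit, while *Scd1* at 0.75 did not pass. Of 24 genes of fatty acid oxidation, 5 fell, 1 of them called, and 0 rose, beside 4.69% and 6.23% of all genes at any fold change. The called one was *Fgf21*, a fasting hormone of the liver, at 0.860, 1.40, 1.33 and 2.34 CPM in WT and 0.447, 0.301, 0.493 and 0.506 CPM in KO mice (log2 fold change -1.76, SE 0.33, edgeR adjusted p = 0.0101), and it was not called in the fit over all 4 female groups (edgeR adjusted p = 0.103).

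No gene of bile acid synthesis was called among 19 tested, and 7 fell at smaller fold changes while 0 rose, beside 4.69% and 6.23% of all genes. The 7 became 4 without KO mouse 2 and 3 in the fit over all 4 female groups. The median log2 fold change was -0.24, and the list summed to 10950 to 11590 CPM in WT and 8634 to 9602 CPM in KO mice. *Cyp8b1*, the sterol hydroxylase that directs synthesis to cholic acid, fell by 0.65 on the log2 scale and *Cyp39a1*, an oxysterol hydroxylase, by 0.84. *Cyp7a1*, the rate-limiting enzyme of the classic pathway, stood at -0.61 and did not pass the test, with 654 ± 240.0 CPM in KO and 1001 ± 295 CPM in WT mice (SD, n = 4). *Cyp27a1* and *Cyp7b1* of the alternative pathway fell by 0.36 and 0.48. Of 15 bile acid and organic anion transporters, *Abcb1a*, an efflux pump, was the 1 called, at 3.94, 3.36, 4.39 and 4.62 CPM in WT and 7.67, 10.9, 10.2 and 7.64 CPM in KO mice (log2 fold change 1.16, SE 0.15, edgeR adjusted p = 0.00234). The basolateral escape pump *Abcc4* (0.68) and *Abcg2* (0.31) rose and the phospholipid floppase *Abcb4* (-0.49), *Slco1b2* (-0.26) and *Abcc3* (-0.21) fell without reaching the fold limit. The uptake carrier *Slc10a1* at 0.02 and the bile salt export pump *Abcb11* at -0.22 did not pass. Among 12 genes of FXR and FGF receptor control, *Rxra* alone moved, at -0.43, while *Fgfr4*, *Klb*, *Nr1h4* and *Nr0b2*, the genes of the ileal hormone's receptor, its co-receptor, FXR and SHP, stood between -0.24 and 0.23.

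Of the Cyp2c family, 12 genes were tested. Besides *Cyp2c70*, *Cyp2c55* was called, at 7.02, 9.11, 6.52 and 6.53 CPM in WT and 15.6, 19.6, 18.6 and 16.1 CPM in KO mice (log2 fold change 1.26, SE 0.12, edgeR adjusted p = 0.00055), and the other 10 lay between -0.33 and 0.10 without passing. Reads of these near-identical copies may be shared between members, so single values are uncertain. Within 1 Mb of *Cyp2c70* 21 genes were tested and 0 were called other than *Cyp2c70* itself. Within 5 Mb, 6 of 109 were called higher and 0 lower, beside 1.99% and 0.567% of all genes. The 6 were *Ankrd1*, *Cyp26a1*, *Cyp26c1*, *Cyp2c55*, *Fgfbp3* and *Scd2*. The xenobiotic receptors and P450 targets beyond this family held no called gene among 25, with *Cyp3a11* at 0.03 (SE 0.09) and *Cyp2e1* falling from 6693 ± 412 to 4898 ± 125 CPM (log2 fold change -0.45, SE 0.06, edgeR adjusted p = 0.00335).

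Glutathione S-transferases, which conjugate electrophiles for export, gave 4 called genes among the 21 tested of the glutathione and NRF2 list. At any fold change 6 rose and 0 fell. Over all genes 1.99% were called higher, and 6.23% rose and 4.69% fell at any fold change. *Gsta1* was at 1.17, 3.63, 0.994 and 0.901 CPM in WT mice and 14.2, 18.3, 21.7 and 8.40 CPM in KO mice (log2 fold change 3.23, SE 0.44, edgeR adjusted p = 0.00266). The WT group had 1 high mouse, still well under the lowest KO mouse. *Gm3776*, its neighbour and close copy, was at 0.263, 1.15, 1.11 and 0.496 CPM in WT and 3.98, 5.74, 8.41 and 2.56 CPM in KO mice (log2 fold change 2.77, SE 0.46, edgeR adjusted p = 0.00623). *Gstm3* was at 89.5, 131, 72.9 and 79.7 CPM in WT and 247, 248, 267 and 210.2 CPM in KO mice (log2 fold change 1.38, SE 0.16, edgeR adjusted p = 0.00147). *Gsta2* and *Gsta4* rose from 38.9 ± 11.2 to 80.5 ± 21.3 CPM and from 30.8 ± 5.25 to 63.4 ± 12.4 CPM, log2 fold changes of 1.05 (SE 0.23, edgeR adjusted p = 0.0177) and 1.04 (SE 0.16, edgeR adjusted p = 0.00383). Of the list's 4 called genes, 2 were called without WT mouse 4 or KO mouse 3, as *Gsta2* and *Gsta4* were then under the fold limit, and *Gsta2* was lost without WT mouse 1 or KO mouse 2 as well. The NRF2 targets *Nqo1* at 0.30, *Gclc* and *Gclm* at -0.10 and *Hmox1* at -0.08 did not pass the test. The sequences before the starts of *Gsta1* (RefSeq, GRCm38 chr9:78230419-78230668, plus strand) and *Gm3776* (chr9:78256879-78257128, plus strand) are shown because they show how alike the copies are. Over 237 aligned bases without a gap they share 236, and the base that differs is in capitals:

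*Gsta1* upstream: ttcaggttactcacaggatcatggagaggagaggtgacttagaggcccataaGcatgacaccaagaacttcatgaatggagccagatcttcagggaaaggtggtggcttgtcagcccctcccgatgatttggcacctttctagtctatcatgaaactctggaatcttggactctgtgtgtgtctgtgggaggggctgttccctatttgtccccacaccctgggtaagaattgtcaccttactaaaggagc

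*Gm3776* upstream: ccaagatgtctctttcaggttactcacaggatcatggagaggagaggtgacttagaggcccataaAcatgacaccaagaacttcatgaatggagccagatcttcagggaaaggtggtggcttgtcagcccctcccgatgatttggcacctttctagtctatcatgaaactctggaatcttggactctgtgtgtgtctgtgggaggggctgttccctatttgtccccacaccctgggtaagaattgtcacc

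This likeness is of the sequence before the starts, and how alike the transcripts are was not measured. Reads of close Gsta copies may be shared, so the count of each is uncertain, although *Gsta1* and *Gm3776* moved the same way. The sulfotransferases, which make bile acids and steroids more soluble, went in both directions, with 2 of 15 called higher and 1 lower. *Sult2a7*, of a family of near-identical copies, was at 20.5, 26.4, 14.4 and 13.4 CPM in WT and 33.4, 51.9, 42.5 and 31.1 CPM in KO mice (log2 fold change 1.09, SE 0.22, edgeR adjusted p = 0.0146). *Sult2a3* was called at 2.76 (SE 0.76, edgeR adjusted p = 0.045) on values of 1.79, 10.1, 4.54 and 0.644 CPM in KO mice, which overlapped the WT mice, and it lost its call in 9 of 16 alternatives, among them the omission of any library but KO mouse 1 or 4. *Sult2a7* was under the fold limit without WT mouse 3 (0.98), WT mouse 4 (0.96) or KO mouse 2 (0.93), and neither *Sult2a7* nor *Sult5a1* was called in the fit over all 4 female groups. *Sult5a1* fell from 46.8 ± 6.02 to 17.9 ± 5.08 CPM (log2 fold change -1.39, SE 0.17, edgeR adjusted p = 0.00177). None of the 18 glucuronosyltransferases tested was called.

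Some of the genes that male mouse liver expresses more than female liver fell in these females. Of 28 tested, 9 were called lower and 0 higher, beside 0.567% and 1.99% of all genes, and 13 fell at any fold change, with a median log2 fold change of -0.70. The list summed to 10040 to 13210 CPM in WT and 4361 to 8161 CPM in KO mice. Most of these calls were major urinary proteins, pheromone carriers that growth hormone pulses induce, and of 18 protein-coding Mup genes tested 10 were called lower and 0 higher. *Mup12* was at 105, 92.6, 202 and 126 CPM in WT mice and 10.4, 13.4, 10.03 and 8.77 CPM in KO mice (log2 fold change -3.62, SE 0.25, edgeR adjusted p = 5.69e-05). *Mup3*, the most abundant member in these livers, was at 1667, 1176, 1286 and 1172 CPM in WT and 578, 499.9, 689.5 and 814 CPM in KO mice (log2 fold change -1.04, SE 0.16, edgeR adjusted p = 0.00416). The groups did not overlap for these 2 genes or for *Mup7*, *Mup11*, *Mup14*, *Mup15* and *Mup17*, whose log2 fold changes were -3.44, -3.57, -3.79, -3.67 and -3.58. *Mup3* was under the fold limit without WT mouse 1 (-0.91), KO mouse 1 (-0.99) or KO mouse 2 (-0.93). *Mup14* lost its call without KO mouse 2 or 3, and *Mup17* without any library but WT mouse 2 or KO mouse 2. In the fit over all 4 female groups *Mup3*, *Mup7*, *Mup11*, *Mup12*, *Mup15* and *Mup17* were not called. The value of -7.73 for *Mup10* rested on WT mouse 3 alone, at 1687 CPM beside 2.66 to 5.50 CPM in the other WT mice and 1.32 to 2.80 CPM in KO mice. *Mup20*, *Mup2* and *Mup8*, at -0.11, -0.04 and 0.08, did not pass. The Mup genes are near-identical copies whose reads can be split or dropped by the counting, so the value of each member is uncertain.

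Outside the Mup cluster, *Serpina1e*, a protease inhibitor with male-biased expression and close copies of its own, was at 1414, 868, 883 and 2443 CPM in WT and 95.5, 108, 58.3 and 396 CPM in KO mice (log2 fold change -3.09, SE 0.59, edgeR adjusted p = 0.0111). *Elovl3*, a fatty acid elongase, was at 46.4, 38.2, 54.7 and 41.9 CPM in WT and 10.9, 4.37, 6.86 and 14.7 CPM in KO mice (log2 fold change -2.30, SE 0.30, edgeR adjusted p = 0.00218). The groups did not overlap for either. Of 26 female-biased genes tested, *Hao2* was called higher and 0 were called lower, with a median of -0.03. In the fit over all 4 female groups 2 of the 28 male-biased genes were called lower and 3 fell at any fold change. Without KO mouse 1, 5 were called, and without KO mouse 2, 8 fell at any fold change.

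The cell cycle list gave 6 called higher and 1 lower of 26 tested, beside 1.99% and 0.567% of all genes. In it 24 members were above 0, with a median log2 fold change of 0.61. *Mcm5* and *Mcm6*, subunits of the replicative helicase, rose from 2.67 ± 0.108 to 6.36 ± 1.28 CPM and from 4.83 ± 0.363 to 10.6 ± 2.49 CPM (log2 fold changes 1.25 and 1.14, SE 0.15 and 0.16, edgeR adjusted p = 0.00147 and 0.00276). *Mki67*, which cycling cells of any kind express, was at 2.60, 2.43, 2.33 and 4.26 CPM in WT and 4.03, 7.29, 5.69 and 11.7 CPM in KO mice, where the highest WT mouse passed the lowest KO mouse (log2 fold change 1.30, SE 0.31, edgeR adjusted p = 0.0272). *Aurkb*, *Foxm1* and *Cdk1* were called between 1.22 and 1.27. The count of 6 was loosely held: it was 1 without KO mouse 4, which had the highest *Mki67*, 2 without WT mouse 1, 2 or 3 or KO mouse 2, and 4 without KO mouse 3. It was also 2 with voom and in the fit over all 4 female groups. *Mki67* was called in neither, and it lost its call without WT mouse 1, 2 or 3 or KO mouse 2 or 4, while *Mcm6* was under the fold limit (0.98) without KO mouse 4.

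The called gene that fell in this list was *Cdkn1a*, the cell cycle inhibitor p21, and it belonged to a group of genes that were highest in 2 of the WT mice. *Cdkn1a* was at 27.2, 78.9, 7.15 and 4.10 CPM in WT mice 1 to 4 and 3.86, 2.36, 2.75 and 2.72 CPM in KO mice (log2 fold change -3.32, SE 0.81, edgeR adjusted p = 0.0274). *Plin4*, a lipid droplet coat protein, was at 19.4, 30.2, 3.93 and 3.33 CPM in WT and 1.70, 1.41, 1.51 and 2.97 CPM in KO mice (log2 fold change -2.90, SE 0.68, edgeR adjusted p = 0.0237). *Tsku*, a secreted hepatokine, was at 182, 167, 24.6 and 29.9 CPM in WT and 14.4, 12.5, 9.09 and 17.1 CPM in KO mice (log2 fold change -2.92, SE 0.62, edgeR adjusted p = 0.0166). In these 3 genes WT mice 1 and 2 were many times higher than WT mice 3 and 4, which lay just above the KO mice. The same split was seen in *Foxo1*, the fasting transcription factor, with 76.2, 93.7, 35.9 and 34.7 CPM in WT mice and a log2 fold change of -1.05, and in *Nfil3*, a clock-linked repressor, with 41.1, 64.5, 29 and 29.9 CPM and -1.17. *Pck1*, the rate-limiting enzyme of gluconeogenesis, which was not called, was at 4041, 4684, 1401 and 1678 CPM in WT and 1500.0, 1478, 2106 and 1739 CPM in KO mice. *Nr1d1*, the clock repressor REV-ERB alpha, ran the other way, with 52.7, 35.4, 195 and 167 CPM in WT and 143, 152, 172 and 191 CPM in KO mice. With WT mice 1 and 2 left out, the log2 fold changes were -0.94 for *Cdkn1a*, -0.94 for *Plin4*, -0.29 for *Foxo1*, -0.69 for *Nfil3* and -0.76 for *Plin5*, none of them called, while *Tsku* was still called. *Plin5* kept its call whichever single library was left out, and the other calls were lost in some of these omissions. *Cdkn1a* lost its call without WT mouse 1 or any KO mouse, and *Plin4* without WT mouse 1 or KO mouse 1, 2 or 3. *Foxo1* lost its call without WT mouse 1 or 2 or any KO mouse, *Nfil3* without WT mouse 2, and *Tsku* without KO mouse 2 or 3. *Foxo1* and *Nfil3* were the only called genes of the glucose (23 tested) and clock (19 tested) lists.

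**Figure D3:**
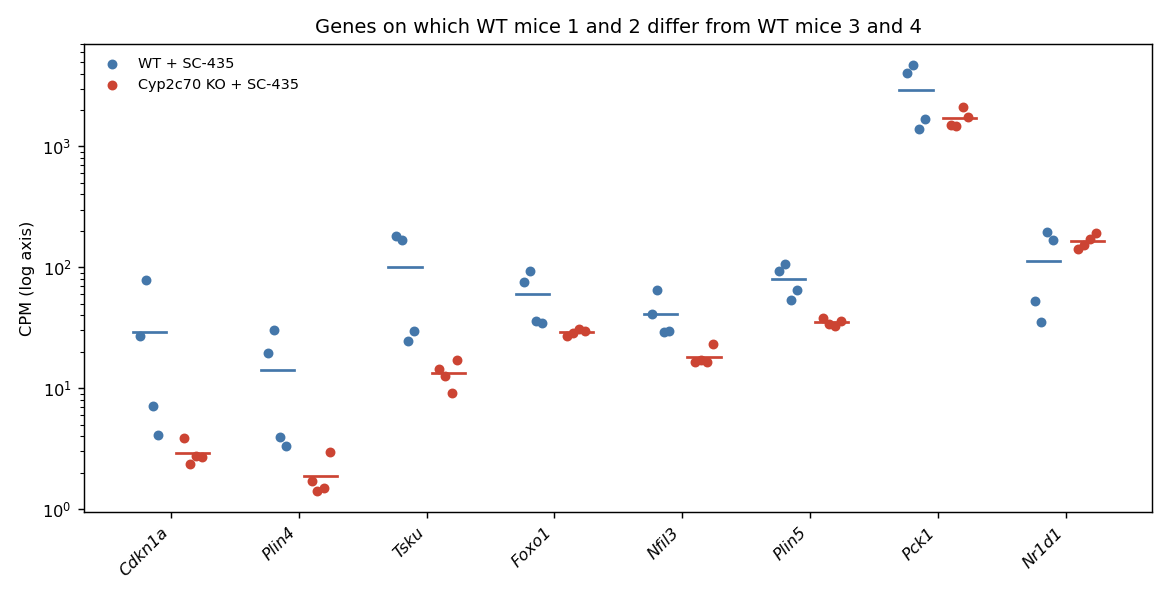
CPM (log axis) of 8 genes in each WT (blue) and KO (red) female on SC-435, in the order of mice 1 to 4 from left to right, with a bar at the group mean. In the first 7 genes WT mice 1 and 2 lie above WT mice 3 and 4, and in *Nr1d1* below them, and the genes were chosen after their values were seen.

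Leaving those 2 mice out gave 242 genes called higher and 66 lower, of which 192 and 39 were also called with all mice. The ductal markers called were then 10 of 14, the matrix genes 6 of 32, the male-biased genes called lower 7 of 28 and the cholesterol genes that rose at any fold change 14 of 25. Leaving out WT mice 3 and 4 instead gave 379 higher and 186 lower, with 12, 5, 11 and 20 in these lists. The cell cycle list had 2 and 4 members called higher in these fits.

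Lipid droplet and lipoprotein genes leaned lower, with 8 of 28 falling at any fold change and 0 rising, beside 4.69% and 6.23% of all genes. The 8 became 5 without KO mouse 1, 2 or 3 and 2 in the fit over all 4 female groups, and with DESeq2 9 fell and 2 rose. *Plin5*, which ties droplets to mitochondria, fell from 79.96 ± 24.8 to 35.04 ± 2.29 CPM (log2 fold change -1.19, SE 0.19, edgeR adjusted p = 0.00463), and *Apoa1*, the main protein of HDL, from 6798 ± 646 to 4685 ± 313 CPM (log2 fold change -0.54, SE 0.08, edgeR adjusted p = 0.00444). Of 26 acute phase genes, 2 were called higher and 1 lower. *Orm2*, an orosomucoid with close copies, was at 21.6, 21.6, 17.9 and 21.1 CPM in WT and 44.6, 37.2, 50.3 and 56.6 CPM in KO mice (log2 fold change 1.20, SE 0.12, edgeR adjusted p = 0.000615). *Hamp*, the iron hormone hepcidin, was at 518, 766, 534 and 851 CPM in WT and 352, 393, 222 and 299 CPM in KO mice (log2 fold change -1.08, SE 0.20, edgeR adjusted p = 0.00961), and it was under the fold limit without WT mouse 4 or KO mouse 3 (-0.94 in both). *Saa4* fell at a smaller fold change (-0.42), while the inducible serum amyloids *Saa1*, *Saa2* and *Saa3*, at 0.24, 0.63 and -0.07, and *Crp*, at -0.03, did not pass the test. *Atf3*, an early stress transcription factor, was called higher, at 2.73, 3.61, 1.95 and 1.45 CPM in KO against 0.358, 0.737, 0.606 and 0.991 CPM in WT mice (log2 fold change 1.85, SE 0.35, edgeR adjusted p = 0.0102), while *Fgf21* and *Chac1* were called lower among the 20 genes of the stress response. The call of *Chac1* was lost in 10 of 16 alternatives, among them the omission of any library but WT mouse 4. *Camk2b*, a calcium-dependent kinase subunit, fell from 16.5, 25.8, 22.1 and 24.2 CPM in WT to 4.28, 5.92, 3.92 and 3.48 CPM in KO mice (log2 fold change -2.33, SE 0.18, edgeR adjusted p = 0.000111). Markers of erythroid, pancreatic acinar and fat cells, which a liver piece could hold, gave 0 called genes among 6, 2 and 3 tested, and 0 at any fold change. Of the 11 hepatocyte markers 0 were called, and 3 fell at smaller fold changes, *Apoa1* among them.

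The most abundant genes past the adjusted p had log2 fold changes under 1 in size. Besides *Apoa1* and *Cyp2e1*, the abundant secreted proteins *Serpina3k* (-0.93, edgeR adjusted p = 0.0267), *Mug1* (-0.86, 0.00383) and *Hp*, haptoglobin (-0.49, 0.0206), are given here by log2 fold change and adjusted p. The others were *Igfbp4*, an IGF-binding protein (-0.30, 0.00991), *Adh1*, alcohol dehydrogenase (0.34, 0.0451), *Aldh1l1*, a folate enzyme (0.43, 0.0392), and *Hmgcs1*, whose rise is given above.

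**Figure D4:**
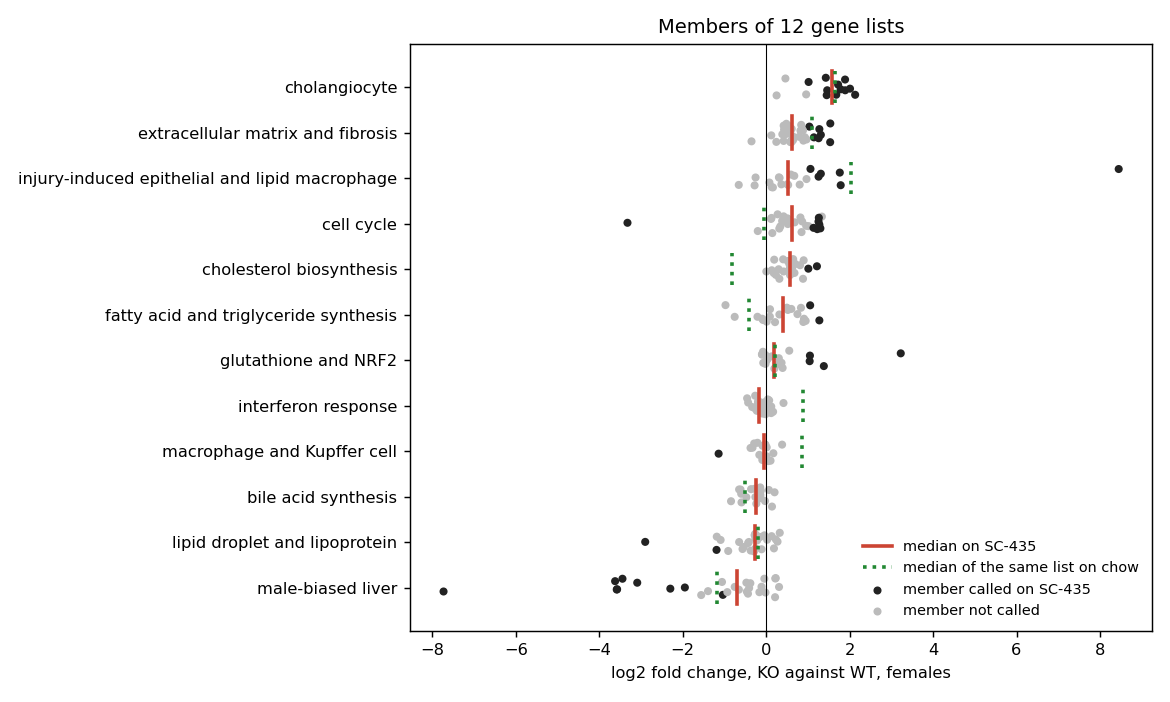
Log2 fold change (KO against WT, females on SC-435) of each tested member of 12 gene lists, black where called and grey where not, with the list's median on SC-435 (red line) and on chow (green dotted line). The ductal markers have like medians on both diets (1.57 and 1.66), the interferon and macrophage lists lie near 0 on SC-435 and above 0 on chow, and the cholesterol list lies above 0 on SC-435 and below 0 on chow.

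The same genotype comparison in chow-fed females, which shares no library with this one, had 919 genes called higher (5.67% of 16205 tested) and 163 lower (1.01%). Of the 316 genes called higher on SC-435, 306 were tested on chow and 156 were called higher there too, 49.4% of the 316 and 17.0% of the 919. Of the 90 called lower, 25 were called lower on chow, 27.8% of the 90 and 15.3% of the 163. The genes called higher on chow had a median log2 fold change of 1.44 there and 0.49 on SC-435 over the 826 tested in both. Conversely, those called higher on SC-435 had medians of 1.42 on SC-435 and 1.21 on chow. Each set was chosen on the diet where its median is larger, so part of that gap follows from the choice. A test of the difference between the 2 genotype effects called 445 genes (2.64% of 16882). That count was 68 without KO mouse 2, 75 without KO mouse 1, 144 without WT mouse 3 and 146 without KO mouse 3. It was 170 without WT mouse 1, 208 without WT mouse 2, 258 without WT mouse 4 and 618 without KO mouse 4. The mice left out here and below are those on SC-435, and no chow-fed library was left out.

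Of the 27 interferon genes, 11 were called higher on chow and 0 on SC-435, the medians were 0.88 and -0.17, and the effect was smaller on SC-435 by the test for 13. That count was 8 without WT mouse 2, WT mouse 4 or KO mouse 3, 4 without KO mouse 1 and 2 without KO mouse 2. Of the 19 macrophage markers, 7 were called higher on chow, and the effect was smaller on SC-435 for 12. That count was 5 without WT mouse 1, WT mouse 3 or KO mouse 3, 6 without WT mouse 2, 4 without KO mouse 1 and 3 without KO mouse 2. The injury list had 15 called higher on chow against 6 on SC-435 and 8 members with a smaller effect (5 without WT mouse 2 and 4 without KO mouse 1, 2 or 3). In all 3 lists no member had a larger effect on SC-435. By contrast, the cholangiocyte list had 9 called higher on chow and 11 on SC-435 with medians of 1.66 and 1.57, and 2 of its members differed, *Prom1*, with a log2 fold change of 3.94 on chow, and *Tspan8*. Matrix genes had 18 called on chow and 7 on SC-435, medians of 1.10 and 0.62, and 2 members with a smaller effect.

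The cholesterol genes lay on opposite sides on the 2 diets, with a median log2 fold change of -0.82 on chow and 0.57 on SC-435. For *Lss* the means were 51.2 ± 30.7 CPM in KO and 94.6 ± 42.98 CPM in WT mice on chow, and 391 ± 42.1 and 168 ± 30.7 CPM on SC-435, and the effect differed between the diets by 2.10 on the log2 scale (SE 0.45, edgeR adjusted p = 0.0269). Of the list, 4 genes passed, all with a larger effect on SC-435, but the count was 0 without any of 6 of the 8 libraries, 1 without WT mouse 4 and 15 with DESeq2. *Cyp8b1*, at -3.22 on chow and -0.65 on SC-435, had no passing difference (edgeR adjusted p = 0.113). *Hao2* went from -1.44 on chow to 2.73 on SC-435, a difference of 4.17 (SE 0.64, edgeR adjusted p = 0.0141). *Fam19a2*, a chemokine-like secreted protein, was at 0.111 ± 0.0509 CPM in KO and 4.79 ± 1.81 CPM in WT mice on chow and at 13.99 ± 1.69 and 18.4 ± 1.66 CPM on SC-435, a difference of 5.01 (SE 0.40, edgeR adjusted p = 1.42e-05).

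**Figure D5:**
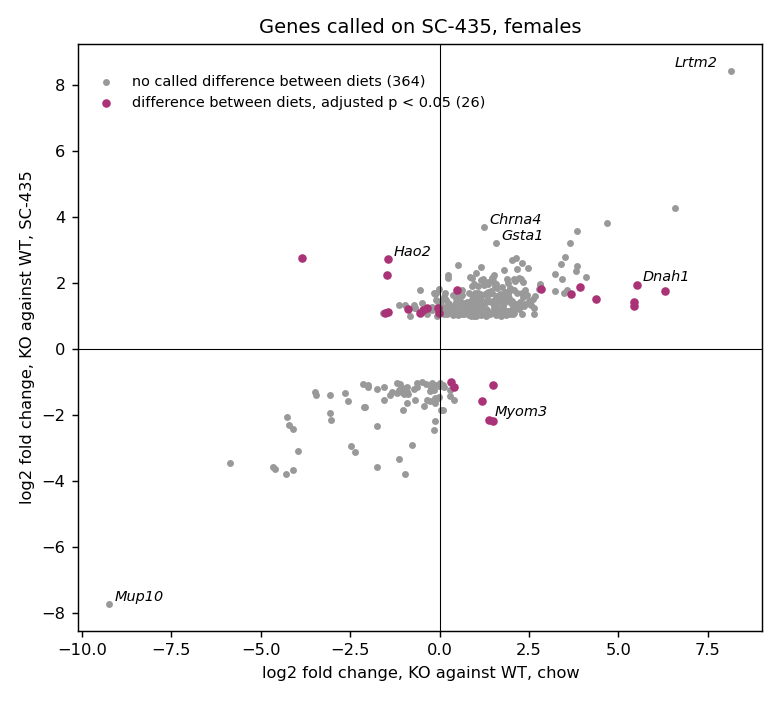
Log2 fold change of KO against WT females on SC-435 (y axis) against that on chow (x axis) for the 390 genes called on SC-435 and tested on chow. The 26 genes with a difference between diets at an adjusted p under 0.05 are purple, the other 364 grey, and *Hao2* lies above 0 on SC-435 and below 0 on chow.

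In males on SC-435, 1 gene was called higher (0.00648% of 15434) and 3 lower (0.0194%), beside 1366 at an unadjusted p under 0.05. DESeq2 called 41 higher and 30 lower in the same mice. By edgeR the higher one was *Lrtm2* and 2 of the lower ones, *Cyp2c70* and *Camk2b*, were lower in females also. Among the genes called higher in females, 253 were tested in males, and 224 of these had the same sign there, with medians of 1.36 in females and 0.49 in males. Among those called lower, 72 of 85 had the same sign, with medians of -1.39 and -0.61. Both sets were chosen on the female libraries, so the larger female medians follow in part from the choice. The share of all tested genes with the same sign in both sexes is not given here. The test of the difference between the sexes called 5 genes (0.0303% of 16477), 3 with a higher and 2 with a lower log2 fold change in females, beside 1559 at an unadjusted p under 0.05. They included *Adamts7*, a matrix protease, whose log2 fold change was 1.35 in females and 0.17 in males (difference SE 0.16, edgeR adjusted p = 0.0117), and *Spp1*, at 1.79 and 0.63 (difference SE 0.17, edgeR adjusted p = 0.0272). *Elovl3* was at -2.30 in females and 0.00 in males (difference SE 0.36, edgeR adjusted p = 0.0289). The 5 became 2 without WT mouse 1 or WT mouse 3 and 3 without KO mouse 1 or KO mouse 2. The cholangiocyte markers had a median of 0.61 in males. The male WT mice were uneven for *Hp*, at 5220 ± 5737 CPM beside 2045 ± 93.6 CPM in male KO mice. In males the 26 acute phase genes had a median of -1.035 with 0 called. No male library was left out in turn, so how far the male counts rest on single mice was not tested.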

How the data were processed

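Liver poly-A RNA of single mice was sequenced. According to the submitters' processing notes the tools included HISAT2 2.0.5, featureCounts 1.5.0-p3, DESeq2 1.20.0 and GATK 4.1.1.0, with mm10 as the genome. The deposited counts are whole reads per gene and library, not normalized. The table also holds FPKM values and the authors' fold changes and p-values per comparison, which were not used. Strandedness and the counting of reads shared between copies are not given in the sources used here.

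Counts were fitted with edgeR 4.0.16 in R 4.3.3 (filterByExpr, TMM, glmQLFit, glmQLFTest) on the 8 libraries of the comparison. The differences between diets and between sexes were interaction terms, and these tests share the 8 libraries with the comparison itself. Alternatives used DESeq2 1.42.0 and limma 3.58.1 (voom with quality weights), other filters and scalings, and other sets of samples. The scripts were tested on simulated data with known changes. Sequences before gene starts came from RefSeq.

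The comparison, the 23 gene lists and the 11 marker lists were chosen with earlier results of these data known, and 678 of 679 listed symbols matched the table. Named genes were *Cyp2c70*, the 10 largest protein-coding rises and falls whose counts averaged 50 or more and whose groups did not overlap, up to 4 called members of each list by adjusted p (or its most abundant members where fewer than 2 were called), the 10 most abundant genes past the adjusted p, and the leading genes of the diet and sex differences and of the chow comparison. Other genes were named after their values were seen, and some genes that this rule names are not reported here.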

Additional observations from a re-analysis of the deposited data

Results flagged for a closer look

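In 10 of 230 groups of 4 mice examined for the named genes, 1 mouse stood far from the other 3 by Dixon's ratio, the share of the group's range taken by the gap to its nearest neighbour. Chance alone gives this in about 1 in 20 groups. The highest WT mouse stood apart for *Gsta1* (0.902), *Mki67* (0.858) and *Mup14* (0.92), and the lowest WT mouse for *Orm2* (0.85). The highest KO mouse stood apart for *Csf3r* (0.893), *Mup17* (0.887), *Nfil3* (0.9085), *Osbpl3* (0.8291) and *Serpina1e* (0.853), and the lowest KO mouse for *Orm3* (0.866).

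The genotype effect in females differed between the diets for 17 named genes by edgeR's interaction test, given as the log2 effect on SC-435 minus that on chow. It was higher on SC-435 for *Sult2a3* (6.6), *Fam19a2* (5.01), *Sult2a1* (4.72), *Hao2* (4.17), *Sult2a7* (2.62), *Myl9* (2.55), *Lss* (2.1), *Mcm5* (1.59) and *Alb* (0.96). It was lower on SC-435 for *Ly6d* (-4.55), *Mmp12* (-4.15), *Mup-ps19* (-3.69), *Dnah1* (-3.59), *Myom3* (-3.53), *Prom1* (-2.06), *Csf3r* (-1.23) and *Plac8* (-0.9).

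The effect on SC-435 differed between the sexes for 4 named genes, given as the log2 effect in females minus that in males. It was higher in females for *Adamts7* (1.18) and *Spp1* (1.15), and lower for *Elovl3* (-2.3) and *Pitx3* (-4.01).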

How the results depend on the processing

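The counts of 316 higher and 90 lower genes became 164 and 49 when the mean count had to reach 50, so that fewer genes were tested. The lower count was 52 in the fit over all 4 female groups and 186 with WT mice 3 and 4 left out, an alternative chosen after seeing the data. With 1 library left out, the counts ranged from 226 to 341 and from 45 to 109. Genes with a difference between diets numbered 445, and 1205 with DESeq2, 947 with library size only and 68 to 618 with a library left out. Those with a difference between sexes numbered 5, and 115 with DESeq2 and 2 to 7 with a library left out. In both ranges only the 8 libraries of SC-435-fed females were left out in turn, and no chow-fed or male library was. At any fold change 374 higher and 192 lower genes were shared with chow and 2 higher genes with males. With DESeq2, 11 higher and 14 lower genes were shared with males.

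Mice of the same number showed no common deviation beyond that of other pairs. Their correlations were 0.0657, 0.00206, -0.00375 and -0.0427, beside -0.104 to 0.0724 for mice of different numbers. With 4 mice a side this check cannot exclude a weak pairing, and the main fit used none. With the number as a replicate block, 269 genes were called higher and 62 lower, 78 differed between diets and 2 between sexes.

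Of 70 named genes called, 38 kept their call in each of the 8 alternatives and 8 omissions of a library in which they were tested. Of these, *Mup-ps19*, *Myom3* and *Pitx3* were tested in 15 of the 16. Of the 70, 0 turned direction. Uncalled genes whose sign turned were *Csf3r* (0.02 with library size only, 0.01 at a mean of 50 counts), *Ecm1* (0 with library size only, 0.02 with voom) and *Cyp4a10* (0 with voom). With a library left out, ranges were 0 to 0.5 for *Cela2a*, -0.16 to 0.06 for *Csf3r*, -0.04 to 0.11 for *Cyp3a11*, -0.14 to 0.06 for *Cyp4a10*, -0.15 to 0.08 for *Ecm1*, -0.07 to 0.31 for Ighm, -0.33 to 0.01 for Igtp, 0 to 0.54 for *Lck*, 0 to 0.18 for *Plac8*, -0.05 to 0.57 for *Sult2a1* and -0.16 to 0.02 for *Xbp1*. Without WT mice 1 and 2, *Cela2a* was at -0.11, *Ecm1* 0.19, Igtp 0.19, *Nr1d1* -0.14 and *Pck1* 0.15. Without WT mice 3 and 4, *Adrb3* was at 0.01, *Csf3r* 0.1, *Cyp3a11* -0.11 and *Plac8* -0.09. Except where a WT pair was left out by construction, the cause was not tested.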
